A study of Mus musculus with 6 samples.

Results

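The 9 genes described here encode the proximal machinery of interferon signaling, and were taken by symbol from the 32285 genes of the deposited matrices. They are the type I interferon receptor chains Ifnar1 and Ifnar2, the interferon gamma receptor chains Ifngr1 and Ifngr2, the Janus kinases Jak1, Jak2 and Tyk2, the transcription factor subunit Stat2, and Socs1, an inhibitor of Janus kinases. All 9 symbols matched a single gene each, and all 9 passed the filter on low counts in every comparison below. HSPCs (Lin- cKit+ Sca1+, or LSK, cells) had been sorted from the bone marrow of female C57BL/6J (CD45.1) mice aged 8 to 12 weeks. The AML group had received 1000000 cells of C1498, a murine leukemia line that carries CD45.2, without conditioning, and the PBS group had received the vehicle. All animals were sacrificed on day 21, and the sort for CD45.1 aimed at the healthy cells of the host. The question put to these genes was whether the receptors and kinases through which HSPCs sense interferon differed between subpopulations of HSPCs, and between leukemic and control marrow.

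Interferons signal through paired receptor chains. Type I interferons bind IFNAR1 and IFNAR2, to which TYK2 and JAK1 are attached, whereas interferon gamma binds IFNGR1 and IFNGR2, to which JAK1 and JAK2 are attached. The activated kinases phosphorylate STAT proteins. STAT2 joins IRF9 and a further STAT in a complex that binds interferon-stimulated response elements (ISRE), whereas STAT dimers formed after interferon gamma bind gamma-activated sites (GAS). SOCS1 is itself induced by interferon and blocks the kinases. In the bone marrow, interferons are known to push quiescent HSCs into cycle, and JAK2 also serves the receptors for thrombopoietin and erythropoietin.

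In the GENCODE M21 annotation of GRCm38, 3 of the 4 receptor genes lie in one stretch of 192.8 kb on the plus strand of chromosome 16. In this stretch Ifnar2 spans chr16:91372783-91405589, Ifnar1 spans chr16:91485238-91507441 and Ifngr2 spans chr16:91547072-91565623. Ifngr1 stands apart at chr10:19591949-19610229. The kinases lie on other chromosomes, with Jak1 at chr4:101152367-101265282 on the minus strand, Jak2 at chr19:29251828-29313080 on the plus strand and Tyk2 at chr9:21104068-21131243 on the minus strand. Stat2 spans chr10:128270559-128292849 on the plus strand, and Socs1 is a compact gene of 3.3 kb at chr16:10782240-10785536 on the minus strand. Ifnar2 overlaps the annotated gene Gm21970 on the same strand, so that counts of these genes may not be fully separable. Jak1 overlaps Gm12785 on its own strand, and Raver2 and Gm24468 on the other strand. Tyk2 overlaps 1700084C06Rik on the other strand.

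The 250 bases before the annotated start of each gene (RefSeq, GRCm38.p6) were searched on both strands for the core of an ISRE (the letters GAAA, any 2 bases, and GAAA again) and for a GAS (TTCNNNGAA). The ISRE core was found in 2 of the 9 windows, those of Stat2 and Socs1, against 2.98% of the 32851 windows of this length in the table. The GAS letters were found in 1 of 9, that of Ifnar2, against 7.02% of all windows. These 3 windows are shown 5′ to 3′ on the strand of the gene because they are the ones with a match, with the matched bases in capitals. The Stat2 window is chr10:128270248-128270497 (plus strand), the Socs1 window is chr16:10785537-10785786 (minus strand) and the Ifnar2 window is chr16:91372533-91372782 (plus strand).
Stat2: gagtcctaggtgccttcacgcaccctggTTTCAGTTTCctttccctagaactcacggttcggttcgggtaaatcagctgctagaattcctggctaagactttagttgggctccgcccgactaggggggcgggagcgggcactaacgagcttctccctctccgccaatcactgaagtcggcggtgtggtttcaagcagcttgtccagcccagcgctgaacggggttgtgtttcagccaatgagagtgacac
Socs1: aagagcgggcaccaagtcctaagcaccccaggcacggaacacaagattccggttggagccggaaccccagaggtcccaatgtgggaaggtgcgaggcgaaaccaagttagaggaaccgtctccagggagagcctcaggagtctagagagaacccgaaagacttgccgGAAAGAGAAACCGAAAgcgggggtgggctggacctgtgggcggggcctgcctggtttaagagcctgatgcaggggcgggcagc
Ifnar2: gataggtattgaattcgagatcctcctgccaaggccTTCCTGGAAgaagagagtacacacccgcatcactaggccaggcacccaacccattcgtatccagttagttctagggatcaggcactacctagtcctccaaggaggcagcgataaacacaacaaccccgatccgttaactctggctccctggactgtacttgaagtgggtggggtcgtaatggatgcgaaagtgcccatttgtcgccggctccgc
In the Socs1 window 2 matches overlap each other, starting 83 and 77 bases before the start, and in the Stat2 window the match lies on the opposite strand. The ISRE and GAS matches fell in different windows. The RefSeq starts used here can differ from the GENCODE starts given above. A match is a description of these letters and not evidence of binding.

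Transcripts were counted as unique molecular identifiers (UMIs) by droplet single-cell RNA sequencing, and the authors' cell table kept 16822 cells of 5 libraries, 3 PBS and 2 AML. The table holds no cell of AML replicate 2. The kept cells carried 10403685 to 32123508 UMIs per PBS library. AML replicate 3 held 27603274 UMIs, and AML replicate 1, the shallowest, held 1945659. Levels below are CPM, the UMIs of a gene per 1000000 UMIs of the summed cells, so they are shares of the RNA counted and not amounts per cell. The matrix of AML replicate 2 shared 1223 of the 1256 barcodes of PBS replicate 2, and 2472 and 2408 barcodes with PBS replicate 3 and AML replicate 3. Within the 5 libraries, 450 of the 934 kept cells of PBS replicate 2 had a barcode that another library also held, against 11 to 56 kept cells in each of the others. The comparisons of classes and of AML with PBS, over all kept cells and within classes, were therefore also computed without cells whose barcode another of the 5 libraries held. PBS replicate 2 then had too few MPP-3 cells for a sum. The LSK markers Kit, Ly6a, Cd34, Flt3 and Adgrl4 together reached 1106 to 1284 CPM in PBS, and in AML they reached 1098 and 1143 CPM.

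Among the 4 classes of HSPCs in control marrow, Ifnar2 rose from HSCs to MPP-4, whereas the kinases, Stat2 and Socs1 took a larger share of the RNA in HSCs than in MPP-2. The classes (HSC and the multipotent progenitors MPP-2, MPP-3, MPP-4) are those the authors gave each cell from module scores of gene signatures, which were computed from RNA of the same cells. Over the 12 sums of 3 PBS libraries and 4 classes, 7 of the 9 genes differed between classes (edgeR, adjusted p under 0.05), which is to be read against 60.7% of all 11793 genes tested. Ifnar1 (adjusted p = 0.313) and Ifngr2 (adjusted p = 0.0885) did not pass.

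Ifnar2 encodes the chain that binds type I interferon with high affinity. Its level in HSCs was 97.1, 88.4 and 94.7 CPM in PBS replicates 1, 2 and 3, and in MPP-4 it was 164, 178 and 158 CPM. The MPP-4 values lay above those of every other class in each library. MPP-2 (111, 119 and 103 CPM) and MPP-3 (115, 98.7 and 112 CPM) lay between, and their ranges overlapped each other. Against HSCs the fitted level was 1.83-fold in MPP-4 (log2 difference 0.87 ± 0.07 SE, n = 3 libraries, adjusted p = 3.59e-10), 1.51-fold in MPP-3 (adjusted p = 2.73e-06) and 1.36-fold in MPP-2 (adjusted p = 6.70e-06). With library size only, the log2 difference of Ifnar2 was 0.81 in MPP-4. In MPP-3 it was then 0.25 in place of 0.59, and in MPP-2 it was 0.22 in place of 0.45. Its partner chain Ifnar1 did not follow it. The Ifnar1 level was 14.1 to 20.5 CPM in HSCs and 17.2 to 18.8 CPM in MPP-4, and these ranges overlapped. In MPP-3 it was 13.8, 3.4 and 10.8 CPM, where the low value of PBS replicate 2 rests on 2 UMIs.

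Ifngr1, the ligand-binding chain for interferon gamma, had its lowest mean in MPP-2. It reached 74.1, 73.1 and 49.6 CPM in MPP-2 and 128, 91.2 and 66.2 CPM in HSCs, so the ranges of the classes overlapped. Within each library MPP-2 was lower than HSC, and the fitted level was 0.784-fold (log2 difference -0.35 ± 0.10 SE, adjusted p = 0.00414). This MPP-2 contrast failed in 3 of 11 alternatives, and without PBS replicate 1 the log2 difference was -0.13. The difference from HSCs in MPP-3 (adjusted p = 0.335) and MPP-4 (adjusted p = 0.506) did not pass. Ifngr2, the signaling chain of the same receptor, was highest on average in MPP-3, with 26.1, 28.9 and 21.2 CPM against 23.7, 21.1 and 20.01 CPM in HSCs. Its MPP-3 difference passed by itself at 1.37-fold (adjusted p = 0.0336), while the test over all classes did not. That contrast failed in 7 of 11 alternatives, left-out libraries included, and with library size only the log2 difference was 0.14 (adjusted p = 0.490) in place of 0.45.

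Jak1 and Jak2 were highest in HSCs. Jak1, which serves both receptors, stood at 254, 141 and 170 CPM in HSCs and at 160, 71.9 and 110 CPM in MPP-2. HSCs exceeded every other class in all 3 libraries. The fitted level was 0.713-fold in MPP-2 (log2 difference -0.49 ± 0.08 SE), 0.754-fold in MPP-3 (-0.41 ± 0.09) and 0.795-fold in MPP-4 (-0.33 ± 0.08), with adjusted p of 8.38e-06, 0.000845 and 0.00153. Jak2, which serves the interferon gamma receptor, stood at 38.8, 31.9 and 33.3 CPM in HSCs and 26.8, 16.8 and 21.8 CPM in MPP-2. It passed in MPP-2 (0.759-fold, adjusted p = 0.00245) and in MPP-4 (0.808-fold, adjusted p = 0.0264) but not in MPP-3 (adjusted p = 0.0872). Tyk2, the partner of IFNAR1, was lower than in HSCs in MPP-2 alone among the tests that passed. Its level was 16.5, 12.5 and 19.4 CPM in HSCs, and 10.8, 7.53 and 6.95 CPM in MPP-2 (0.611-fold, adjusted p = 0.00076).

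Stat2, a subunit of the complex that binds ISREs, took its largest share in HSCs. It was 17.3, 15.4 and 16.6 CPM in HSCs, 13.1, 13.2 and 12.0 CPM in MPP-4, and 9.35, 5.34 and 7.37 CPM in MPP-2. The HSC, MPP-4 and MPP-2 values did not overlap with one another, whereas MPP-2 and MPP-3 (8.86, 6.81 and 9.65 CPM) did. The fitted level in MPP-2 was 0.552-fold that in HSCs (log2 difference -0.86 ± 0.16 SE, adjusted p = 8.99e-05), and in MPP-3 it was 0.66-fold (adjusted p = 0.0271). The MPP-4 difference of -0.33 ± 0.15 did not pass (adjusted p = 0.115). Socs1 was 27.5, 19.96 and 15.8 CPM in HSCs, and 14.0, 10.4 and 9.13 CPM in MPP-2. It fell to 0.62-fold in MPP-2 (adjusted p = 4.93e-05) and to 0.747-fold in MPP-3 (adjusted p = 0.0393). Without the cells of clusters 6 to 8, described below, the MPP-3 log2 difference was -0.83 (adjusted p = 0.00201) in place of -0.42, and that of Tyk2 in MPP-3 was -0.51 (adjusted p = 0.0754) in place of -0.17. For Stat2 and Socs1, HSC was the highest class in each of the 3 libraries.

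Counted by contrast, 1 member was higher and 6 were lower in MPP-2 than in HSCs, against 26.1% and 25.5% of all genes tested. For MPP-3 the counts were 2 higher and 3 lower (20.2% and 15.7% of all genes). For MPP-4 they were 1 higher and 2 lower (14.7% and 13.4% of all genes). The median log2 difference of the 9 genes was -0.40 for MPP-2, -0.22 for MPP-3 and -0.02 for MPP-4, and over all genes tested it was -0.04, -0.01 and 0.01. Without the library as a block, 3 of 9 genes passed, namely Ifnar2, Tyk2 and Stat2, against 2933 of all 11793 genes tested. Without the cells that shared a barcode with another library, 6 of 9 passed, against 6636 of all 12206 genes tested. The log2 difference from HSCs without these cells was 0.93 for Ifnar2 in MPP-4, -0.38 for Jak1 in MPP-2 and -0.75 for Stat2 in MPP-2. The edgeR test over classes was no longer passed by Jak2 without these cells (adjusted p = 0.197) or with any of the 3 PBS libraries left out (adjusted p from 0.0667 to 0.0768). Socs1 did not pass without PBS replicate 1 (adjusted p = 0.0681), and Tyk2 did not pass without PBS replicate 3 (adjusted p = 0.0680). Among the single contrasts with HSCs, Jak2 in MPP-4 failed in 8 of 11 alternatives, Socs1 in MPP-3 in 7 and Stat2 in MPP-3 in 5, and for each of them this included at least 2 of the 3 left-out libraries. Ifnar2 in MPP-3 and MPP-4 passed in all 11, where its log2 difference ranged from 0.25 to 0.73 in MPP-3 and from 0.81 to 0.95 in MPP-4.

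**Figure D1:**
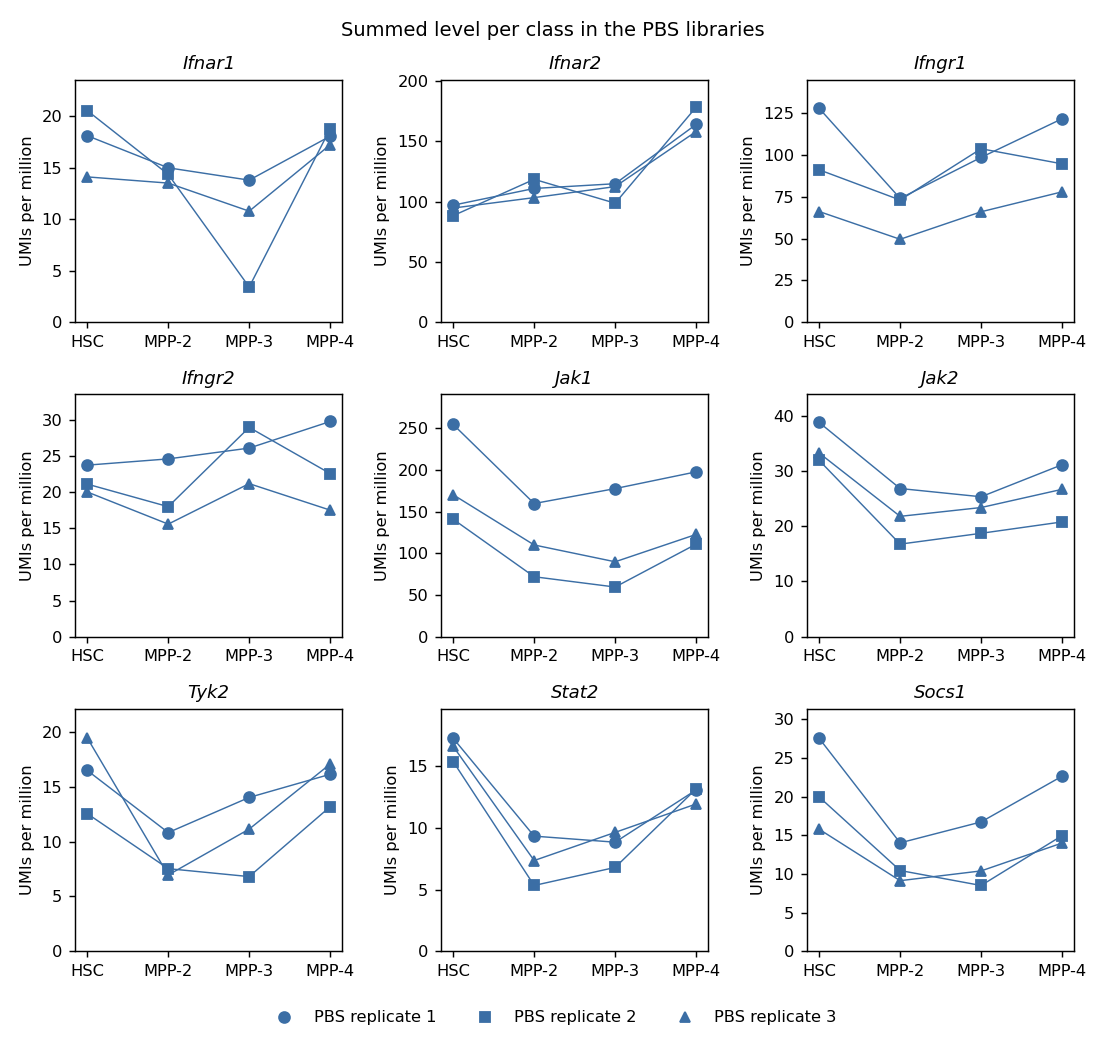
Level of each of the 9 genes in CPM (vertical axis, from 0) in the 4 classes of the 3 PBS libraries; each point is one library and class, and lines join the classes of a library. Ifnar2 climbs to 158 to 178 in MPP-4, while Jak1, Jak2, Stat2 and Socs1 are highest in HSCs in every library.

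These values are shares of RNA, and the classes differ in how many UMIs a cell yields. In PBS replicate 1 the median cell held 3160 UMIs in HSCs and 6174 in MPP-2. Counted per 100 cells instead, Jak1 gave 90.4, 111 and 62.7 UMIs in HSCs and 103, 112 and 75.8 UMIs in MPP-2, so the MPP-2 value was the higher one in all 3 libraries. Stat2 kept its order against MPP-2, with 6.14, 12.1 and 6.13 UMIs per 100 HSCs and 6.00, 8.33 and 5.08 UMIs per 100 MPP-2 cells. Against MPP-3 and against MPP-4, HSCs had the higher Stat2 per cell in 2 of 3 libraries. Jak1 and Jak2 per cell were higher in HSCs than in MPP-4 in all 3. Ifnar2 per 100 cells was higher in MPP-2 (71.3, 185 and 71.2 UMIs) than in HSCs (34.5, 69.5 and 34.9 UMIs) in each library. Per cell, then, HSCs exceeded MPP-2 in every PBS library only for Stat2, whereas in CPM they did so for 7 of the 9 genes, the exceptions being Ifnar2 and Ifngr2.

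Cell cycle phase moved with class. By the authors' phase calls, 84.1% to 87.9% of HSCs in the PBS libraries were in G1, against 6.06% to 12.9% of MPP-2, 55.5% to 58.5% of MPP-3 and 71.7% to 75.9% of MPP-4. Phase, like class, was called from RNA of the same cells, so levels by phase are a description. Over all kept cells, Stat2 was 14.4 to 23.4 CPM in G1 cells and 4.51 to 11.4 CPM in S phase cells of the 5 libraries, and the ranges did not overlap. The ratio of G1 to S had a median of 2.06 for Stat2, 1.63 for Jak2, 1.57 for Socs1 and 1.47 for Tyk2, and it was lowest for Ifnar2 at 1.21. G1 exceeded S in all 5 libraries for 7 of the genes, and in 4 of 5 for Ifnar2 and Socs1. Against G2M cells, Tyk2 had the widest ratio at 2.25, and Ifngr2 had a ratio under 1 in 4 of 5 libraries, with a median of 0.946.

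Restricted to G1 cells, the fitted differences between HSCs and MPP-2 were near 0 for Ifnar2, Jak1, Stat2 and Socs1, while those of Ifnar2 and Jak1 between HSCs and MPP-4 passed again. In these 11 sums (PBS replicate 2 had too few MPP-2 cells in G1), 2 of 9 genes passed over the classes, Ifnar2 (adjusted p = 1.21e-07) and Jak1 (adjusted p = 0.0145), against 25.4% of all genes tested. The MPP-4 difference from HSCs was 0.91 ± 0.09 for Ifnar2 and -0.31 ± 0.07 for Jak1. Their MPP-2 differences did not pass in G1, at 0.02 ± 0.17 for Ifnar2 (adjusted p = 0.972, with 0.45 over all cells) and -0.09 ± 0.11 for Jak1 (adjusted p = 0.760, with -0.49 over all cells). Tyk2 in MPP-2 had -0.86 ± 0.34 in G1 (adjusted p = 0.20), with -0.71 over all cells. Stat2 in G1 was 19.8, 16.6 and 17.3 CPM in HSCs of PBS replicates 1, 2 and 3, and 19.1 and 13.6 CPM in MPP-2 of replicates 1 and 3, which rest on 14 and 10 UMIs. Its MPP-2 difference in G1 was -0.05 ± 0.32 (adjusted p = 0.961). Socs1 in MPP-2 was 0.15 ± 0.26 relative to HSCs in G1. In the S and G2M cells alone, an analysis added after the data were seen, 4 of 9 genes passed (Ifnar2, Ifngr1, Jak2 and Socs1), against 3597 of all 10699 genes tested. The log2 difference of MPP-2 from HSCs in these cells was -0.87 for Socs1 (adjusted p = 0.0092) and -0.38 for Stat2 (adjusted p = 0.498). Whether phase accounts for the class differences was not tested.

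**Figure D2:**
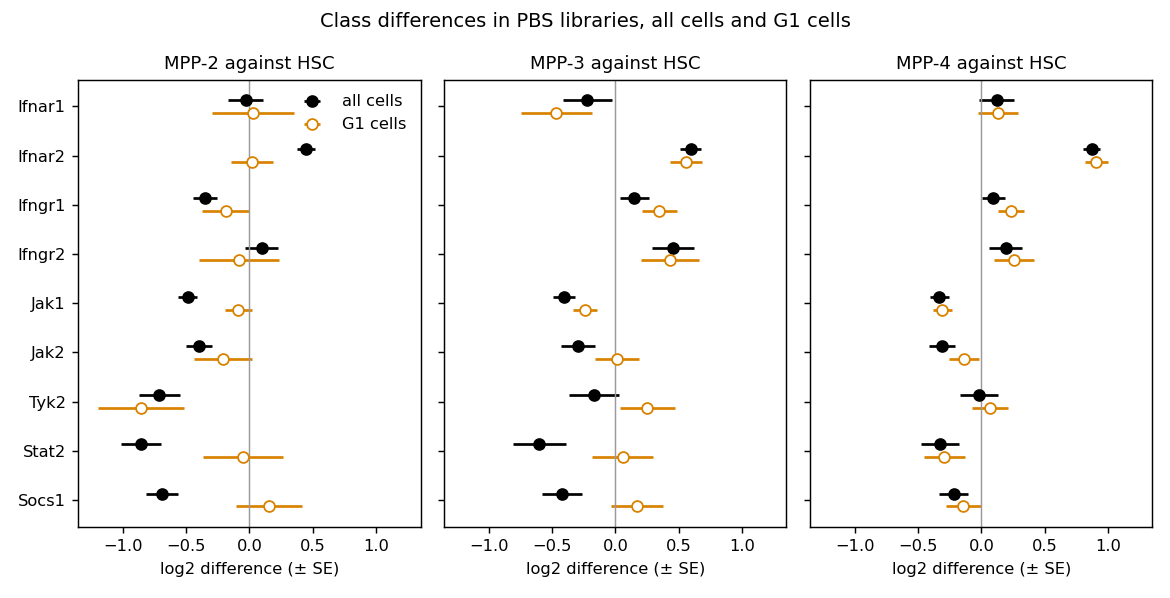
Fitted log2 difference of MPP-2, MPP-3 and MPP-4 from HSCs (horizontal axis, bars are ± 1 SE) in the PBS libraries, for all cells (filled) and for G1 cells (open). Ifnar2 in MPP-4 is 0.87 over all cells and 0.91 in G1 cells, whereas Stat2 in MPP-2 is -0.86 over all cells and -0.05 in G1 cells.

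The authors' 9 clusters, numbered 0 to 8, were also made from the RNA of these cells, so levels across them are given without a test, for libraries with at least 20 cells in the cluster. Cluster 2, in which the MPP-4 markers summed to 1638 to 2091 CPM, had 163 to 207 CPM of Ifnar2 in 5 libraries, against 103 to 124 CPM in cluster 0 and 132 to 180 CPM in cluster 4. The MPP-4 markers also summed to 1053 to 2136 CPM in cluster 6 and to 1028 to 1936 CPM in cluster 8. Ifnar2 was 71.5 to 85.4 CPM in cluster 6 and 74.5 to 128 CPM in cluster 8. Cluster 4, rich in the MPP-3 granule genes (5133 to 7100 CPM), had 29.5 to 51.0 CPM of Ifngr2 against 16.2 to 25.4 CPM in cluster 0. Jak1 in cluster 4 was 61.8 to 127 CPM and in cluster 0 was 120 to 225 CPM. These are ranges over libraries, and those of Jak1 overlapped.

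Cluster 8 stood apart from all others in Socs1. T and NK cell markers summed to 679.5, 1145 and 1874 CPM there in the 3 libraries with enough cells, and to at most 322.5 CPM in any other cluster and library. Socs1 was 161, 174 and 215 CPM in cluster 8 (PBS replicates 1 and 3 and AML replicate 3), on 19, 19 and 49 UMIs, and at most 33.8 CPM elsewhere. Ifngr1 was 314, 211 and 420 CPM, and Jak2 was 93.4, 73.3 and 96.3 CPM, each above its range in every other cluster. Stat2 had 2, 0 and 3 UMIs in these cells in the same order, too few to place its level, and the 0 of PBS replicate 3 allows up to 27.5 CPM. Cluster 6, in which B and plasma cell genes took 90462 to 172384 CPM, was low for Jak1 (8.82 to 24.6 CPM), Ifngr1 (15.4 to 31.2 CPM) and Jak2 (4.41 to 7.73 CPM). Tyk2 was not low in cluster 6, at 14.8 to 19.8 CPM against 10.3 to 19.0 CPM in cluster 0. Cluster 7, with the erythroid genes at 3429 to 20175 CPM (at most 14422 CPM elsewhere), had the lowest Ifnar2 of all clusters, at 35.5 to 65.5 CPM, beside 149 to 192 CPM of Ifngr1.

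**Figure D3:**
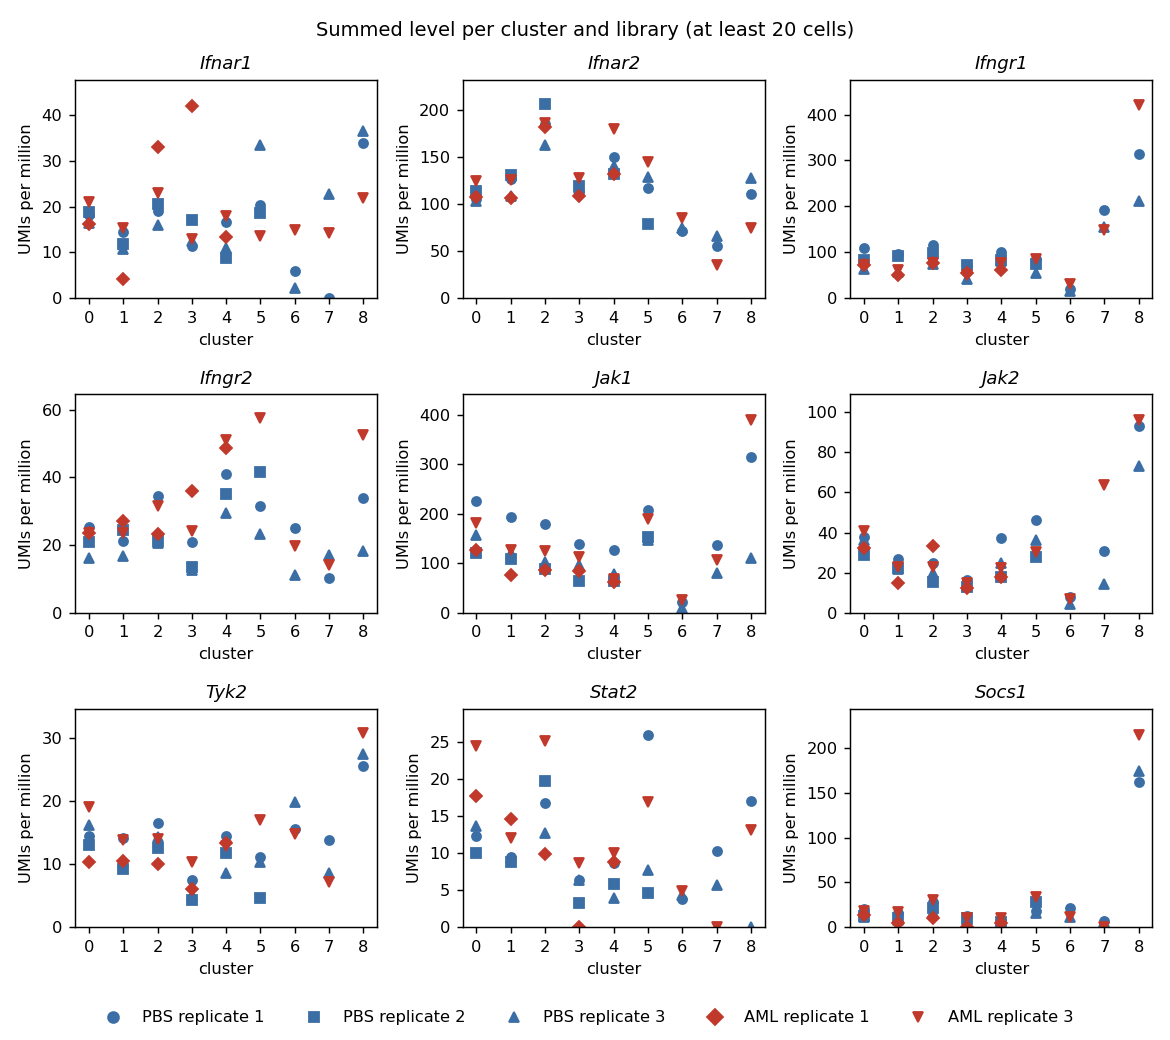
Level of each gene in CPM (vertical axis, from 0) in the authors' clusters 0 to 8, one point per library with at least 20 cells. Socs1 reaches 161 to 215 in cluster 8 and at most 33.8 elsewhere, and Jak1, Jak2 and Ifngr1 are low in cluster 6.

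Comparing AML with PBS over all kept cells, none of the 9 genes passed the test (edgeR quasi-likelihood, 3 PBS and 2 AML libraries). Of all 14364 genes tested 0.16% passed, and at an unadjusted p under 0.05 there were 0 of 9 members against 10.5% of all genes. DESeq2 and limma-voom also called 0 of 9. In 3 of 9 genes, Ifnar1, Ifngr2 and Stat2, the values in AML all exceeded those in PBS, as they did in 16% of all genes. In 0 of 9 were they all lower (13.7% of all genes). The fitted change was above 0 for 6 of 9 genes, against 47% of all genes.

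Stat2 came nearest to the threshold. Its level was 11.9, 10.1 and 10.5 CPM in PBS, with 12.3 and 16.6 CPM in AML replicates 1 and 3. The AML values were the higher ones, the first of them by little and on 24 UMIs. By edgeR the fitted change was 1.36-fold with a 95% interval of 0.97 to 1.91 (log2 fold change 0.45 ± 0.23 SE, adjusted p = 0.506). Without AML replicate 3 the log2 fold change was 0.19, without shared barcodes it was 0.28, and with the class sums of each library weighted to common class shares it was 0.80 (adjusted p = 0.470). Ifngr2 was 26.5, 20.9 and 17.5 CPM in PBS, and 28.8 and 29.8 CPM in AML (1.34-fold, interval 0.97 to 1.85, adjusted p = 0.511). Ifnar1 was 16.4, 16.4 and 14.4 CPM in PBS, and 17.5 and 18.3 CPM in AML (1.12-fold, interval 0.816 to 1.54).

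The genes of the remaining machinery overlapped between the groups. Ifnar2 was 128, 135 and 120 CPM in PBS, and 122 and 144 CPM in AML (1.03-fold, interval 0.732 to 1.44). Ifngr1 was 103, 86.1 and 62.7 CPM in PBS, and 61.2 and 70.2 CPM in AML (0.781-fold, interval 0.55 to 1.11). For Jak1, PBS replicate 1 stood alone at 190 CPM, while the other PBS libraries (97.7 and 121 CPM) were near those of AML (95.1 and 128 CPM). The Jak1 interval was 0.542 to 1.23, that of Jak2 was 0.708 to 1.37 and that of Tyk2 was 0.753 to 1.51. Socs1 spread more between the AML libraries, 8.74 and 19.7 CPM, than between the groups, whose PBS values were 19.5, 13.6 and 11.8 CPM, and its interval was 0.682 to 1.58. In this fit a change of 2-fold in either direction lay outside the interval of every one of the 9 genes. Over 17 edgeR settings, the reported one included, the interval reached past 2-fold in 9 for Stat2, 4 each for Ifngr2 and Jak1, 3 for Ifngr1 and 1 for Socs1. For Socs1 this was without AML replicate 3, where the log2 fold change was -0.77 (95% interval -1.62 to 0.08).

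**Figure D4:**
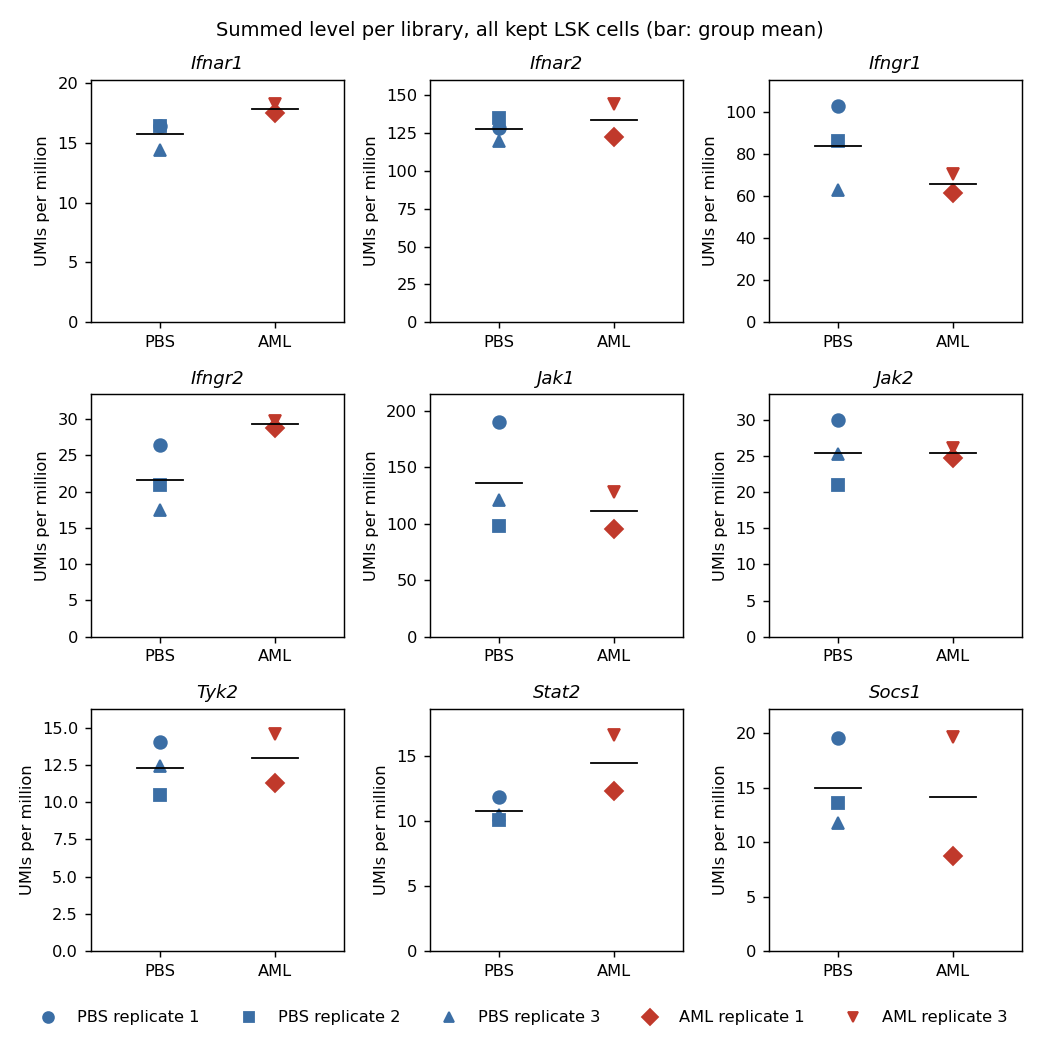
Level of each gene in CPM (vertical axis, from 0) over all kept cells in the 3 PBS and 2 AML libraries; points are libraries and bars are group means. Stat2, Ifngr2 and Ifnar1 are higher in both AML libraries than in every PBS library, and in the other 6 genes the groups overlap.

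Other properties of the cells differed between the groups. In the PBS libraries 55.9% to 58.2% of kept cells were in G1. The shares were 14.7% for AML replicate 1 and 49.0% for AML replicate 3. HSCs made up 20.5% to 23.9% of kept cells in PBS, and 3.32% and 13.7% in AML replicates 1 and 3. MPP-3 made up 4.39% to 11.6% in PBS, and 32.9% and 22.3% in AML. With class shares held equal the change of Stat2 was the 0.80 given above, where the 23 HSCs of AML replicate 1 take a weight of 16.7%. Among S and G2M cells alone the edgeR log2 fold change of Stat2 was 0.75 (adjusted p = 0.310), and among G1 cells it was 0.41 (adjusted p = 0.930). Over 18 alternatives, each left-out library included, the adjusted p of Stat2 ranged from 0.294 to 0.947. The 7 monocyte and macrophage markers summed to 46.6 to 82.4 CPM in PBS and, in AML, to 237 and 238 CPM, with 6 of 7 higher in both AML libraries and none of the 7 at 0. The 6 erythroid markers summed to 709 to 1043 CPM in PBS and to 252 and 509 CPM in AML, with 2 of 6 lower in both AML libraries. The 5 MPP-3 markers summed to 769.6 to 1324 CPM in PBS, and to 1804 and 1805 CPM in AML, with 4 of 5 higher in both. Of the 8 HSC markers 6 were lower in both AML libraries, with sums of 504 to 634 CPM against 429 and 512 CPM. The part of these cells in the values of the 9 genes was not tested.

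Within the classes, too, none of the 9 genes passed by edgeR or by DESeq2. The share of all genes that passed was 0.178% for HSCs, 0.0399% for MPP-2, 0.0486% for MPP-3 and 0.0325% for MPP-4. In HSCs 2 members had an unadjusted p under 0.05 (4.16% of all genes), both higher in AML (2.02%), the AML values all exceeded PBS in 3 members (19.5%) and were all lower in 0 (7.19%), and 7 fitted changes were above 0 (46.9%). In MPP-2 the same counts were 0 members (7.56% of all genes), 0 of them higher (4.42%), 1 with AML above PBS (16.1%), 0 with AML below (10.2%) and 5 changes above 0 (47.9%). In MPP-3 they were 0 (7.39%), 0 (3.69%), 4 (16.8%), 0 (5.29%) and 6 (48.6%). In MPP-4 they were 1 (5.93%), 1 (3.47%), 2 (17.3%), 0 (8.62%) and 5 (47.8%). The 2 members under 0.05 in HSCs became 0 with DESeq2 and without AML replicate 3, and 1 without clusters 6 to 8, without shared barcodes, and without PBS replicate 2 or PBS replicate 3. The 0 in MPP-3 became 2 without AML replicate 3 and 1 without PBS replicate 3. The 1 in MPP-4 became 0 with DESeq2, without PBS replicate 1 and without AML replicate 3.

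In HSCs the members with the lowest p were Stat2 and Socs1. Stat2 was 17.3, 15.4 and 16.6 CPM in HSCs in PBS. AML replicate 3 had 32.5 CPM, and AML replicate 1 had 65.3 CPM, which rests on 4 UMIs of 23 cells. The groups did not overlap, and the edgeR log2 fold change was 0.93 ± 0.33 (adjusted p = 0.679, 95% interval 0.28 to 1.57). With each library left out in turn the change ran from 0.85 to 1.56, the highest being without AML replicate 3 (adjusted p = 0.642), and without shared barcodes it was 0.78. Over its alternatives the adjusted p ranged from 0.315 to 1.00. Socs1 was 27.5, 19.96 and 15.8 CPM in PBS. It was 38.4 CPM in AML replicate 3, and 16.3 CPM on 1 UMI in AML replicate 1, so the groups overlapped. Its edgeR log2 fold change was 0.65 ± 0.31 (adjusted p = 0.992), and without AML replicate 3 it turned to -0.79.

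Stat2 was also the member with the lowest p in MPP-4, where it was 13.1, 13.2 and 12.0 CPM in PBS, and 22.8 and 21.9 CPM in AML, on 8 and 182 UMIs in the latter. The groups did not overlap, at an edgeR log2 fold change of 0.71 ± 0.27 (adjusted p = 0.687). In MPP-2 the Stat2 values overlapped, with 9.35, 5.34 and 7.37 CPM in PBS and 7.62 and 11.9 CPM in AML (log2 fold change 0.47 ± 0.31, adjusted p = 0.704), and without AML replicate 3 the change was -0.04. In MPP-3 the lowest p belonged to Ifngr1, with 98.6, 104 and 66.1 CPM in PBS and 48.7 and 78.2 CPM in AML (-0.61 ± 0.34, adjusted p = 0.748). Leaving out AML replicate 3 gave -1.04 for this gene, leaving out AML replicate 1 gave -0.33, and leaving out PBS replicate 2 gave -0.35. Leaving out shared barcodes gave -0.37. Ifnar1 followed, with 13.8, 3.4 and 10.8 CPM in PBS and 21.1 and 16.1 CPM in AML (0.59 ± 0.36, adjusted p = 0.787). Ifngr1 was second in MPP-2 (-0.36 ± 0.26, adjusted p = 0.720) and in MPP-4 (-0.37 ± 0.24, adjusted p = 0.916).

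Whether the AML effect itself differed between the classes was tested in one fit over the 20 library and class sums, and 0 of 9 genes passed by edgeR, against 0.872% of the 12734 genes tested. No member had an unadjusted p under 0.05, and limma-voom called 0 of 9. The 2 lowest by edgeR were Ifngr2 (adjusted p = 0.549), whose effect in MPP-3 exceeded that in HSCs by 0.46 ± 0.27 on the log2 scale, and Ifnar2 (adjusted p = 0.559).

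**Figure D5:**
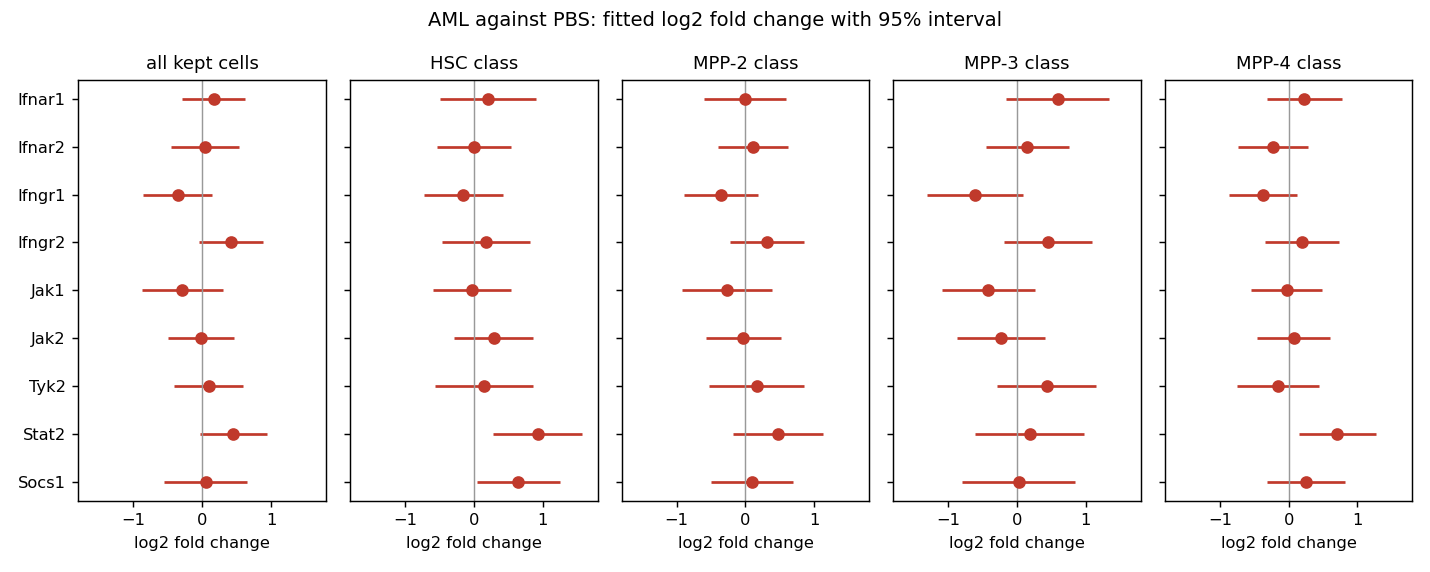
Fitted log2 fold change of AML against PBS (horizontal axis, points) with its 95% interval (bars) for each of the 9 genes, over all kept cells and in each class. The intervals of Stat2 and Socs1 in HSCs and of Stat2 in MPP-4 lie above 0 before adjustment over all genes, and none of these passed after it.

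Around the 9 genes, the interferons themselves were hardly counted in these cells. Of 10 ligand genes 9 had 0 UMIs among the 94812773 UMIs of the 5 libraries, which allows up to 0.0316 CPM each, and Ifng had 5 UMIs. Of 27 partners and regulators 26 could be tested and none passed, with 13 of 26 above 0 and a median log2 fold change of -0.01, against -0.03 over all genes. Among them Irf9, the DNA-binding partner of STAT2, was 24.4 to 37.5 CPM in PBS, and 27.8 and 34.8 CPM in AML. The lowest p was that of Cish, a feedback inhibitor of cytokine receptors, at -0.73 ± 0.33 (adjusted p = 0.473). The median log2 fold change of the 9 genes themselves was 0.05. Of 22 type I interferon targets tested none passed, but 20 of 22 were above 0 (47% of all genes) with a median of 0.52, and 10 of 22 were higher at an unadjusted p under 0.05 (5.51% of all genes). Their lowest p was that of Ifi27l2a (1.42 ± 0.29, adjusted p = 0.0792). Of 22 interferon gamma targets 1 passed, Irf8, a transcription factor that also directs monocyte development (2.17 ± 0.33, adjusted p = 0.0183), where 0.16% of all genes passed. By edgeR, Irf8 did not pass without shared barcodes (2.27, adjusted p = 0.326), without PBS replicate 1 (2.25, adjusted p = 0.133) or without AML replicate 1 (1.96, adjusted p = 0.0557). In this list 15 of 22 were above 0 with a median of 0.13, and at an unadjusted p under 0.05 there were 3 higher and 1 lower. The lists were chosen with earlier results of these data known, so their counts are descriptions and no test of the lists.

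Across the 20 library and class sums the genes of the pathway fell into different patterns. The pairs with the highest correlation of log2 CPM were Jak2 with Stat2 (r = 0.71), Jak1 with Jak2 (r = 0.70) and Jak1 with Socs1 (r = 0.62), and the lowest was Ifnar2 with Jak2 (r = -0.68). The chains of one receptor were not closely related, at r = 0.05 for Ifnar1 and Ifnar2 and r = -0.02 for Ifngr1 and Ifngr2. Some sums hold few UMIs, with 1 each of Ifnar1 and Ifngr2 in the HSCs of AML replicate 1. The part of counting error in these r was not tested. Among 3939 genes with a mean log2 CPM of at least 5, the genes most like Ifnar2 were BC035044 (r = 0.90) and Tm6sf1 (r = 0.89). Those most like Jak1 were Kmt2e and Rbm5 (r = 0.86 and 0.85), those most like Jak2 were Zbtb38 and Dennd1b (both r = 0.79 to 0.80), and those most like Tyk2 were Ptbp2 and Etnk1 (r = 0.77 and 0.69). Stat2 was most like Smad4 and Herc6 (r = 0.86 and 0.85), and Socs1 was most like Csnk1g3 and Ndfip2 (both r = 0.87). Ifnar1 was most like Gstcd and Acbd3 (r = 0.81 and 0.79), Ifngr1 was most like Edem2 and Sqstm1 (r = 0.90 and 0.82), and Ifngr2 was most like Hdlbp and Ssr3 (r = 0.87 and 0.84). The 20 sums share 5 libraries and their depth, so these values are descriptions.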

How the data were processed

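Per the submitters' processing notes, the deposited UMI counts per gene and barcode came from Cell Ranger 7.0.1 with GRCm38 (mm10), and the authors' cell table from Seurat 4.3.0 under R 4.2.2. How cells were filtered and doublets handled is not given in the sources read. Another 20 columns of the cell table were not used. UMI counts of the kept cells were summed per library, and per library and class, cluster or phase with at least 20 cells. Sums were tested with edgeR 4.0.16 (R 4.3.3; TMM, filterByExpr, quasi-likelihood F test, Benjamini-Hochberg adjustment over all genes tested, threshold 0.05), with limma 3.58.1 and DESeq2 1.42.0 as alternatives. Class differences in PBS libraries had the library as a block, and AML against PBS had none. Printed CPM are plain shares of the sum without TMM. Fits were tested on simulated data. The 9 genes and the lists were chosen with earlier results of these data known. Within classes the 2 members with the lowest p were named. For each pathway list, genes that passed were named, otherwise the gene with the lowest p, and Irf9 was added after its values were seen. The library is the replicate. The labels do not say that libraries are separate animals, so p-values of AML against PBS measure the spread between libraries. In fits with a term for each library, as for the class differences, p-values measure the spread left within libraries. Deviations of same-numbered libraries had correlations of -0.06 and -0.05. With 2 AML libraries their deviations mirror each other, so this check cannot show whether replicate numbers pair the libraries. Intervals cover 95%. Limits for a count of 0 use 3 UMIs and cover counting error only.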

Additional observations from a re-analysis of the deposited data

Results flagged for a closer look

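AML replicate 2 has no cell in the authors' table and entered none of the main comparisons. Over all 17055 barcodes of its matrix, 6 of the 9 genes were above the highest PBS library, which is what singled them out, and 2 of 9 were below the lowest. Of all 22449 genes with a UMI, 45.7% were above and 19.5% were below. Of the 7040 genes with at least as many UMIs as the lowest of the 9, these shares were 48.5% and 26.1%. Ifnar1 was 27.1 CPM against 14.6 to 16.4 CPM over all barcodes of the PBS libraries, and Ifnar2 was 181 CPM against 116 to 130 CPM. Ifngr2 was 28.8 CPM against 16.8 to 25.7 CPM, and Jak2 was 30.9 CPM against 22.0 to 29.5 CPM. Tyk2 was 19 CPM against 10.4 to 14.0 CPM. Stat2 was 35.4 CPM, on 251 UMIs, against 9.16 to 11.7 CPM. Ifngr1 was lower, at 61.5 CPM on 436 UMIs against 62.9 to 102 CPM, as was Socs1, at 11.4 CPM on 81 UMIs against 12.4 to 19.7 CPM. Jak1 (156 CPM) lay within its PBS range. The same matrix held 6900 barcodes that another library also held. Its barcodes had a median of 320 UMIs in a library of 7089569 UMIs, and 106 of them passed a filter (1000 or more genes detected, mitochondrial UMIs no more than 10%). In those 106 barcodes Stat2 was 26.1 CPM on 8 UMIs, and in the 31 that no other library shared it was 73.1 CPM on 5 UMIs. The part of shared barcodes and of low depth in these values was not tested.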

How the results depend on the processing

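For AML against PBS over all kept cells, 0 of 9 members passed under each of 13 alternatives and with each of 5 libraries left out, while the number of all genes that passed ranged from 0 (kept cells with shared barcodes left out; 1211 genes at an unadjusted p under 0.05) to 419 (without AML replicate 3). With the replicate block 0 of 9 members and 91 genes passed, against 23 without it, and the block changed no member's call within classes. Signs turned in 4 members. Jak2, at -0.02, became 0.0016 with library size only, 0.10 with class-standardised sums and 0.10 in S and G2M cells. Socs1, at 0.05, became -0.062 with the replicate block, -0.078 with an own filter on all 6 libraries, -0.074 with AML replicate 2 limited to unshared barcodes and -0.067 without shared barcodes. Tyk2, at 0.09, became -0.035 with the replicate block. Ifnar2, at 0.04, became -0.037 with class-standardised sums and -0.11 in G1 cells. With each library left out in turn, Jak2 ranged from -0.12 to 0.077, Socs1 from -0.77 to 0.37, Tyk2 from -0.13 to 0.21 and Ifnar2 from -0.064 to 0.15. Stat2 ranged from 0.19 to 0.59, and over all alternatives from 0.19 to 0.80. Within classes 0 of 9 members passed in every alternative. Left out in turn, libraries moved Socs1 in HSCs between -0.79 and 0.85 and Stat2 in MPP-2 between -0.041 and 0.62. In HSCs without AML replicate 3 no gene passed, with 915 at an unadjusted p under 0.05, and DESeq2 on all 5 libraries called none (86 at an unadjusted p under 0.05). Over all alternatives and left-out libraries the genes that passed numbered 0 to 29 in HSCs (19 as reported), 0 to 156 in MPP-2 (5), 2 to 166 in MPP-3 (5), 0 to 75 in MPP-4 (4) and 1 to 506 for the difference between classes (111).

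For the classes in PBS libraries, 3 members passed with no replicate block, 2 in G1 cells and 4 in S and G2M cells, in place of 7, and the genes that passed numbered 2933, 2713 and 3597 in place of 7164. With each library left out 5 or 6 members passed, against 5126 to 7136 of all 11759 to 12490 genes tested. Under the other alternatives 6 to 8 members passed, against 5942 to 8260 of all 11705 to 20768 genes tested. Contrasts with HSCs that turned sign were these. With library size only, Ifngr1 in MPP-3 was -0.17 and Ifngr2 in MPP-2 was -0.13. With no filter, Ifnar1 in MPP-2 was 0.019 and Tyk2 in MPP-4 was 0.023. Without shared barcodes they were 0.070 and 0.0064. In G1 cells Ifnar1 in MPP-2 was 0.024, Ifngr2 in MPP-2 was -0.084, Jak2 in MPP-3 was 0.012, Tyk2 was 0.25 in MPP-3 and 0.068 in MPP-4, Stat2 in MPP-3 was 0.058, and Socs1 was 0.15 in MPP-2 and 0.17 in MPP-3. In S and G2M cells Ifnar1 was 0.17 in MPP-2 and 0.20 in MPP-3, and Ifngr1 was -0.087 in MPP-3 and -0.17 in MPP-4. Leaving out each library moved Ifnar1 in MPP-2 between -0.16 and 0.058, Ifngr2 in MPP-2 between -0.068 and 0.16, and Tyk2 in MPP-4 between -0.052 and 0.057. The causes were not tested.

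The alternatives by phase, by shared barcodes and for classes without clusters 6 to 8 were chosen after seeing the data. AML replicate 1 held 23 HSCs, with 1 to 11 UMIs each of Ifnar1, Ifngr1, Stat2 and Socs1 there.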
